A study of Mus musculus with 18 samples.

Results

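The genes described here encode the chains of collagens and laminins, the main structural proteins that fibroblasts place around themselves. They were the protein-coding rows whose symbol is that of a collagen or laminin chain and that held at least 10 counts in at least 3 of the 18 libraries. Of 55487 rows in the count table, 55 carried such a symbol and 34 met the count rule, 25 of them collagen and 9 laminin chains. Of the other 21 rows, 3 had 0 counts in every library and the highest count of any was 12.

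The libraries were made from wild-type mouse embryonic fibroblasts (MEFs), a line that the study obtained from a repository. Scm cells grew in complete medium with 10% of a fetal bovine serum that leaves MEFs sensitive to ferroptosis, an iron-dependent death by lipid peroxidation. Rcm cells grew in medium with 10% of a serum that makes them resistant. S-Rcm cells were moved from Scm into Rcm, and R-Scm cells from Rcm into Scm, for 12 h or 24 h before RNA extraction. Each of these 6 groups had 3 libraries, and the sera differ as whole mixtures, so no single serum component was varied. No label says that the libraries came from separate cultures, so p-values measure only the spread between these samples.

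Total counts ran from 14534906 to 20313715 per library, and the 34 genes took between 0.695% and 1.18% of them. All 8 fibroblast markers were above 1 CPM (counts scaled to the size of the library) in every group. Markers of epithelial, endothelial and skeletal muscle cells summed to at most 3.25 CPM in any library. The smooth muscle and pericyte markers, led by Acta2, were high in all groups and moved between them, with sums of 793 to 902 CPM in Scm, 1092 to 1252 in Rcm, 726 to 835 in S-Rcm 12 h, 1267 to 2211 in S-Rcm 24 h and 940 to 1545 in R-Scm 12 h. Of the other markers of that list, Tagln was at 84.1 to 219 CPM and Cnn1 at 2.2 to 8.49 CPM over all libraries. Myh11 and Rgs5 were nearly absent, at no more than 5 counts and no more than 1 in any library. The chondrocyte sum was 20.6 to 27.5 CPM in Scm and 15.8 to 17.3 in Rcm. It was nearly all Sox9, as Acan reached at most 2 counts and Matn3 at most 10. The part of either sum in the results below was not tested. A change in the cells that carry a transcript and a change in its amount per cell cannot be told apart in bulk RNA.

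Collagens are built from 3 chains wound into a triple helix. Fibrillar collagens (types I, III, V, XI and XXVII here) assemble into the fibrils that bear tension, whereas type IV collagen forms the sheet-like network of basement membranes. Laminins join 1 α, 1 β and 1 γ chain into a cross-shaped molecule that binds cell-surface receptors and anchors that network. By these roles 9 of the genes were fibrillar, 14 belonged to the basement membrane and 11 to other collagens such as the beaded-filament type VI and the anchoring-fibril type VII.

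Promoter windows are shown for the 5 chain genes that passed the test between Rcm and Scm, and for Col4a6, which lies head to head with one of them. Each is the 250 bases before the RefSeq start (GRCm38.p6), 5′ to 3′ on the gene's strand. Col3a1 lies at chr1:45311288-45311537 on the plus strand, Col11a1 at chr3:114030290-114030539 (plus), Col7a1 at chr9:108953336-108953585 (plus), Col4a5 at chrX:141475169-141475418 (plus), Col4a6 at chrX:141474077-141474326 (minus) and Lama2 at chr10:27616943-27617192 (minus). Capitals mark matches to 4 short promoter motifs on either strand. They are the TATA box, searched as TATAAA, which in many genes sits shortly before the start, and the CCAAT box, searched by the 5 letters of its name. The others are the GC box, searched as GGGCGG, which Sp1-family factors bind, and the AP-1 site, searched as TGANTCA, which Fos and Jun proteins bind. No match overlaps another.
Col3a1: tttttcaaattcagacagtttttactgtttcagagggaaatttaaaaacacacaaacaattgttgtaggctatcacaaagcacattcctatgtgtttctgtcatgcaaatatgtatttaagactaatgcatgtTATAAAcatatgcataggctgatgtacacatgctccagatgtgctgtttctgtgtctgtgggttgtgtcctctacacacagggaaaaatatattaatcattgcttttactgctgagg
Col11a1: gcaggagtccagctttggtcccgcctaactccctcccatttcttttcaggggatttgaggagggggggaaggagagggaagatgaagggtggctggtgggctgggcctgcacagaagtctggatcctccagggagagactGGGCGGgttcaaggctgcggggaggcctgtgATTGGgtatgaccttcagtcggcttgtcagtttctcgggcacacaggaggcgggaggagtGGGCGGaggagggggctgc
Col7a1: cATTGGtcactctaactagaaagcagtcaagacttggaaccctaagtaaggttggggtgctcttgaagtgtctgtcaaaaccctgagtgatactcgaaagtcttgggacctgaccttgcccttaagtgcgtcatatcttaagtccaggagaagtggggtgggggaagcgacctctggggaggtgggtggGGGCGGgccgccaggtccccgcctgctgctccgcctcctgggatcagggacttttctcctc
Col4a5: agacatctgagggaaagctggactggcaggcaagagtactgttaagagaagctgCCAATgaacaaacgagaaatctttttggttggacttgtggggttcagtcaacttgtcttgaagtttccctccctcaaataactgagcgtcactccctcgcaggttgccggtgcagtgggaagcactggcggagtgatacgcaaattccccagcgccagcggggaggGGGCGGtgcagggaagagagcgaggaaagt
Col4a6: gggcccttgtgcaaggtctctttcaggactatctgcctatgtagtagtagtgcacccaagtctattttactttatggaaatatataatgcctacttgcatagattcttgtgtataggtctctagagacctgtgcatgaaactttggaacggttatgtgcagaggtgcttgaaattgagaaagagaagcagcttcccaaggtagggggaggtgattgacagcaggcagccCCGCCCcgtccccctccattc
Lama2: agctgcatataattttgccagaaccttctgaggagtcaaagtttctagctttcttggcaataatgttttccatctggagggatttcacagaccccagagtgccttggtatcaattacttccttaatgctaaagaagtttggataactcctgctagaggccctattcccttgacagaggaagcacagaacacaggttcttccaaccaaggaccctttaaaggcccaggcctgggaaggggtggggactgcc

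The windows differed in these letters. Col3a1 held 1 TATA box, 117 to 112 bases before the start, in a window of 35.2% G and C. Col11a1 held 2 GC boxes and a CCAAT box, and Col7a1 and Col4a5 held 1 of each. Lama2 held none of the 4 motifs, which says only that these letters are not in this window. Of the 26 chain genes with a window, 3 held a TATA box (12.4% of all 32851 windows did), 11 a CCAAT box (33.8%), 16 a GC box (32.7%) and 1 an AP-1 site (6.75%).

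The 34 genes spanned a wide range of levels, given here as CPM per kb of the principal transcript. Of these, 17 were over 10, 3 between 1 and 10, and 14 under 1. Both chains of type I collagen were at the top, Col1a2 at 330 ± 63.1 (SD over 18 libraries) and Col1a1 at 241 ± 57.7. Col5a2 followed at 165 ± 30.3 and Col6a1 at 159 ± 23, a pair whose spreads overlap. Col3a1, the chain of type III collagen, was at 93.1 ± 37.8 and Col4a1 at 89.4 ± 9.88, which also overlap. Of the laminins, Lamc1 (67.5 ± 5.61) and Lamb1 (60.9 ± 5.48) were the highest, far above any α chain. Col6a2 (63.8 ± 13.5) and Col4a2 (57.1 ± 6.32) complete the 10 highest.

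**Figure D1:**
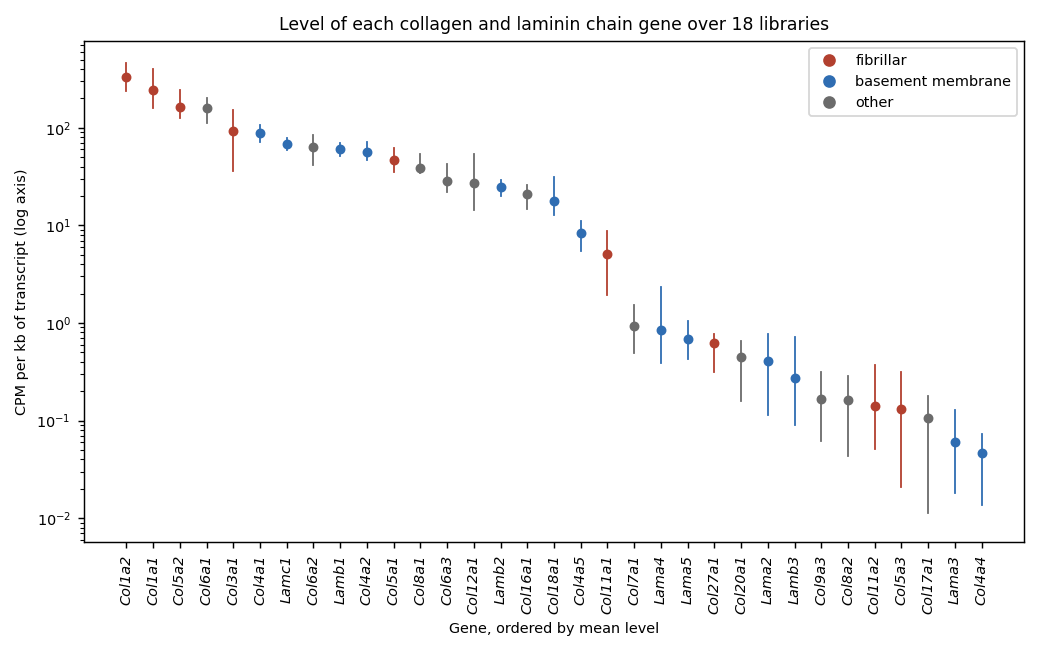
Mean level of 33 of the 34 genes (points) with the lowest and highest of the 18 libraries (lines), in CPM per kb of transcript on a log axis, coloured by matrix class. Type I chains lie highest, and the line for Col3a1 is long, from 35.9 to 152.

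α chains of laminin were scarce. Lama4 was at 0.855 ± 0.495 CPM per kb, Lama5 at 0.683 ± 0.151 and Lama2 at 0.404 ± 0.183. The ratio of Lama4 to Lamc1, from counts per kb, averaged 0.0128 over the 18 libraries, whereas Lamb1 to Lamc1 averaged 0.904. That of Lama5 to Lamc1 averaged 0.0101, and that of the β chains Lamb2 to Lamb1 0.411. With the union of annotated exons as length these averages were 0.00696 for Lama4, 0.55 for Lamb1, 0.0109 for Lama5 and 0.678 for Lamb2 to Lamb1. Among type IV chains, Col4a1 and Col4a2 were abundant and Col4a5 was at 8.32 ± 1.58 CPM per kb. The 3 type IV pairs sit head to head in the genome, and their partners differed in how far both were seen. Col4a1 and Col4a2 overlap by 22 bases at their starts and both were high. Col4a5 reached 1332 counts while Col4a6, whose start lies 1309 bases away, had 0 counts in all 18 libraries, which allows up to 3 counts in each. Neither Col4a3 nor Col4a4 exceeded 12 counts in any library.

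Rcm and Scm cells were compared to ask how the 2 sera set the expression of these chains. A total of 5 genes passed the test, all higher in Rcm: the fibrillar chains Col3a1 and Col11a1, the basement membrane chains Col4a5 and Lama2, and Col7a1, the chain of anchoring fibrils. That is 5 of 34, where 2.3% of all 15381 genes tested passed. To pass, a gene needed a log2 fold change of more than 0.58 in either direction and, in edgeR's quasi-likelihood test, an adjusted p below 0.05.

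Col3a1 was at 300, 279 and 296 CPM in the 3 Scm libraries and at 821, 844 and 809 CPM in Rcm. The groups did not overlap, and the log2 fold change was 1.5 (SE 0.34, edgeR adjusted p = 0.0271). Col11a1, a minor fibrillar chain that sits inside fibrils, was at 21.4, 21.4 and 20.1 CPM in Scm and at 67.2, 66.2 and 58 in Rcm, a log2 fold change of 1.60 (SE 0.39, edgeR adjusted p = 0.0385). Every Rcm library was again above every Scm library. Both calls were lost when low-count genes were kept in the fit, when any 1 Scm library was left out and without Rcm replicate 1 or 2; 2 or 3 chain genes then passed.

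Col7a1 rose from 5.35, 5.2 and 4.54 CPM in Scm to 9.98, 10.05 and 14.1 in Rcm, by 1.18 on the log2 scale (SE 0.18, edgeR adjusted p = 0.00143). A microRNA gene, Mir711, overlaps it on the same strand by 36 bases. Col4a5 was at 42.0, 35.9 and 43.5 CPM in Scm and 73.3, 67.7 and 67.7 in Rcm, a log2 fold change of 0.78 (SE 0.13, edgeR adjusted p = 0.00291). These 2 calls held in all 13 alternatives run for each.

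Lama2, the α2 chain of the laminin known from muscle basement membrane, was low throughout. Its 3 Scm libraries held 2.14, 1.11 and 1.65 CPM and its Rcm libraries 6.05, 4.79 and 4.93. The groups did not overlap, and the log2 fold change was 1.67 (SE 0.34, edgeR adjusted p = 0.0108). The call was lost without Scm replicate 2 or 3 and without Rcm replicate 1. Gm48084 overlaps Lama2 by 631 bases on the other strand, and whether the counting used strand is not given in the sources used here.

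**Figure D2:**
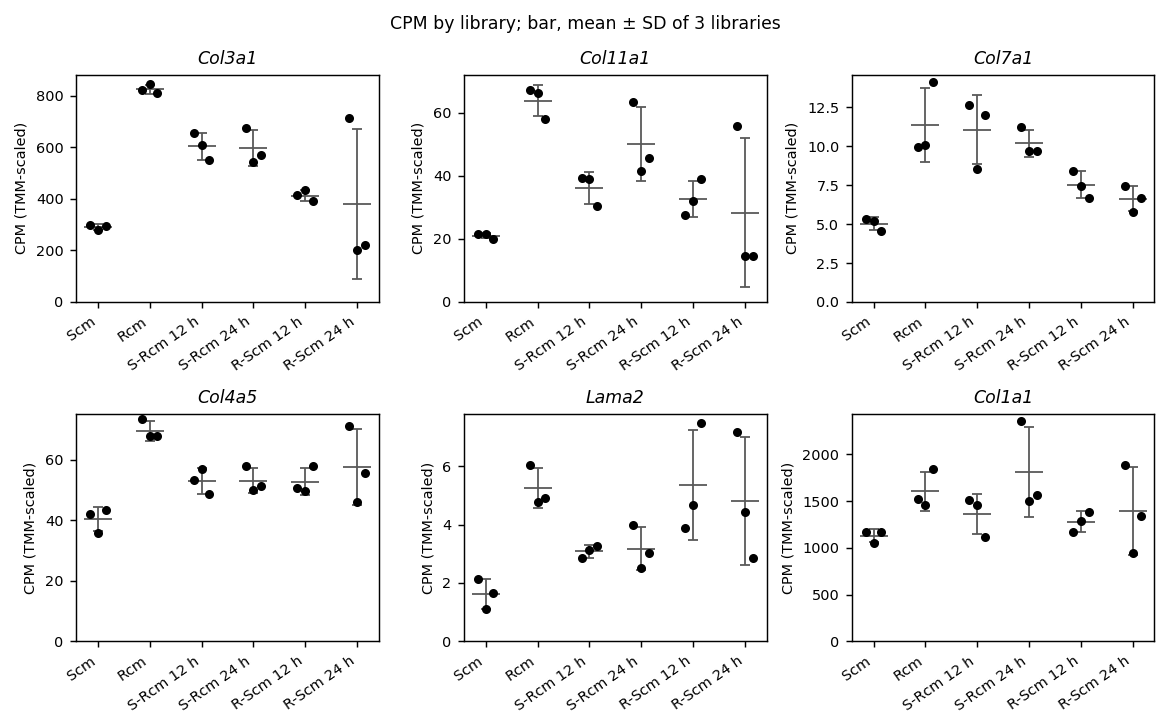
CPM of the 5 genes that passed the test between Rcm and Scm, and of Col1a1, in each library (points) with the mean ± SD of 3 libraries (bars), by group. R-Scm 24 h replicate 1 lies far above the other 2 libraries of its group for Col3a1 and Col11a1.

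The classes differed in how their members were placed. All 9 fibrillar genes had a positive fitted value in Rcm against Scm, and 2 of them passed. Their median log2 fold change was 0.50, beside 0.01 over all genes, of which 51.9% were positive. Of the 14 basement membrane genes 8 were positive and 2 passed, with a median of 0.20. Of the 11 other collagens 9 were positive and 1 passed, with a median of 0.32. Of the 34 genes, 17 were higher in every Rcm library than in any Scm library and 1, Lamb1, was lower, that is 52.9% against 23.9% of all genes. Col1a1, at 0.50 (SE 0.21, edgeR adjusted p = 0.25), and Col1a2, at 0.35 (SE 0.17, edgeR adjusted p = 0.318), did not pass. The abundant basement membrane chains were close to 0, with Col4a1 at -0.02 (SE 0.13), Col4a2 at -0.02 (SE 0.11) and Lamc1 at -0.08 (SE 0.10).

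Summed over the class, fibrillar chains took 4375 ± 126 CPM in Scm and 6138 ± 297 in Rcm (SD, n = 3). Basement membrane chains took 2116 ± 78.0 and 2099 ± 152 CPM. Other collagens took 1528 ± 50.8 and 1976 ± 9.48 CPM. These sums follow their most abundant genes and were not tested.

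**Figure D3:**
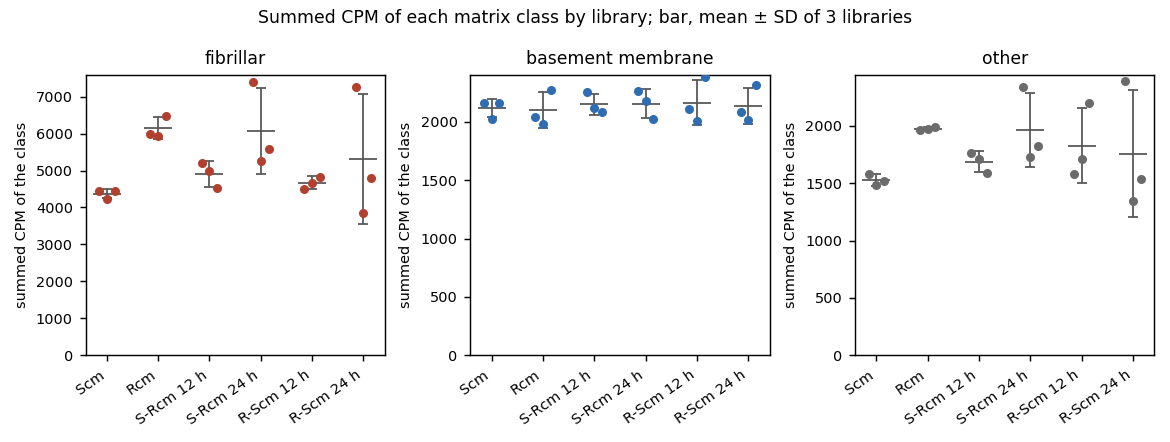
Summed CPM of the fibrillar, basement membrane and other genes in each library (points) with the mean ± SD of 3 libraries (bars), by group. The basement membrane sum lies between 1982 and 2383 CPM in all 18 libraries, and the fibrillar sum between 3860 and 7405.

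Cells moved from Scm into Rcm were compared with Scm cells to follow the response over time; both time points share the Scm libraries. At 12 h 1 gene passed, Col7a1, where 0.858% of all genes did, and at 24 h again Col7a1, where 0.338% did. Col7a1 was at 12.7, 8.52 and 12.0 CPM after 12 h and at 11.2, 9.72 and 9.68 after 24 h, all above the 3 Scm libraries. Its log2 fold change was 1.13 at 12 h (SE 0.18, edgeR adjusted p = 0.00539) and 1.02 at 24 h (SE 0.18, edgeR adjusted p = 0.0194). Leaving out any 1 Scm or S-Rcm 24 h library ended the 24 h call.

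Col3a1 did not pass at either time in the fit of all groups, whereas DESeq2 called it at 12 h and edgeR on the compared groups alone called it at both. It was at 654, 608 and 549 CPM after 12 h and at 675, 542 and 572 after 24 h, between the Scm and the Rcm libraries in all 6. The log2 fold change from Scm was 1.05 (SE 0.33, edgeR adjusted p = 0.15) and 1.03 (SE 0.33, edgeR adjusted p = 0.313). Col11a1 did not pass either, though DESeq2 called it at 24 h and edgeR on the compared groups alone at both times. It was at 39.3, 39.1 and 30.3 CPM after 12 h and 63.5, 41.3 and 45.6 after 24 h (log2 fold change 1.26 at 24 h, SE 0.39, edgeR adjusted p = 0.266). Among genes with a mean of at least 1 CPM, the third largest fitted value at 12 h was that of Col20a1, a fibril-associated collagen, at 0.96 (SE 0.34, edgeR adjusted p = 0.195). Genes without overlap between groups numbered 18 higher and 3 lower at 12 h (26.4% of all genes did not overlap) and 16 higher and 0 lower at 24 h (19.5%). At 24 h no chain gene passed against Rcm cells either (0.221% of all genes did), with 2 at an unadjusted p under 0.05. None passed edgeR between 12 h and 24 h (0.156%), with 2 at an unadjusted p under 0.05, and DESeq2 called 0 in both.

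The reverse exchange was compared with Rcm cells; both times share the Rcm libraries. No chain gene passed at 12 h, where 2.74% of all genes did, and 11 of 34 had an unadjusted p under 0.05; DESeq2 called 3. No chain gene passed at 24 h, where 0.377% did, and 7 had an unadjusted p under 0.05. DESeq2 called 2. For counts at an unadjusted p and for DESeq2 calls, here and elsewhere, the share of all genes is not given. Such counts are therefore no measure of how chain genes compare with other genes. Without overlap, 4 were higher and 10 lower at 12 h (23.4% of all genes did not overlap), and 2 higher and 5 lower at 24 h (11.2%). Col16a1, a fibril-associated collagen, reached an edgeR adjusted p of 0.0459 at 12 h, with a log2 fold change of -0.53 that is under the fold limit.

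At 12 h Col3a1 was at 414, 433 and 391 CPM, below all Rcm libraries (log2 fold change -0.999, SE 0.33, edgeR adjusted p = 0.113). At 24 h its libraries were far apart, at 714, 200 and 223 CPM. Col11a1 was split the same way, at 55.6, 14.7 and 14.7 CPM. R-Scm 24 h replicate 1 held the highest value of its group for 22 of the 34 genes and for all 9 fibrillar ones, where it was highest for 35.1% of all genes with 180 counts or more in all. In other groups 1 library was likewise high, with the share of all genes with 180 counts or more in brackets. R-Scm 12 h replicate 3 was highest for 24 of the 34 genes (38.3%), Rcm replicate 3 for 21 (40.5%) and S-Rcm 12 h replicate 1 for 18 (30.6%). S-Rcm 24 h replicate 1 was highest for 22 (40.3%) and for 8 of the 9 fibrillar ones. Its fibrillar sum was 7405 CPM beside 5258 and 5571. The smooth muscle and pericyte markers summed to 1470 to 1654 CPM in the 3 R-Scm 24 h libraries, and their part was not tested.

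At 24 h 5 genes passed when R-Scm 24 h replicate 1 was left out, all lower than in Rcm. That library was picked out by its values for these genes. Counts and adjusted p without it, here and below, therefore do not count as support. The share of all genes that passed without it is not given here. The log2 fold change was then -1.96 for Col3a1 (edgeR adjusted p = 1.09e-07) and -2.12 for Col11a1 (edgeR adjusted p = 1.67e-05). Col7a1 stood at -0.87, Col6a2 at -0.72 and Col8a2 at -2.30. With all 3 libraries the values were -1.12 for Col3a1 (SE 0.33, edgeR adjusted p = 0.188), -1.17 for Col11a1 (SE 0.38, edgeR adjusted p = 0.235) and -0.78 for Col7a1 (SE 0.18, edgeR adjusted p = 0.0583).

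**Figure D4:**
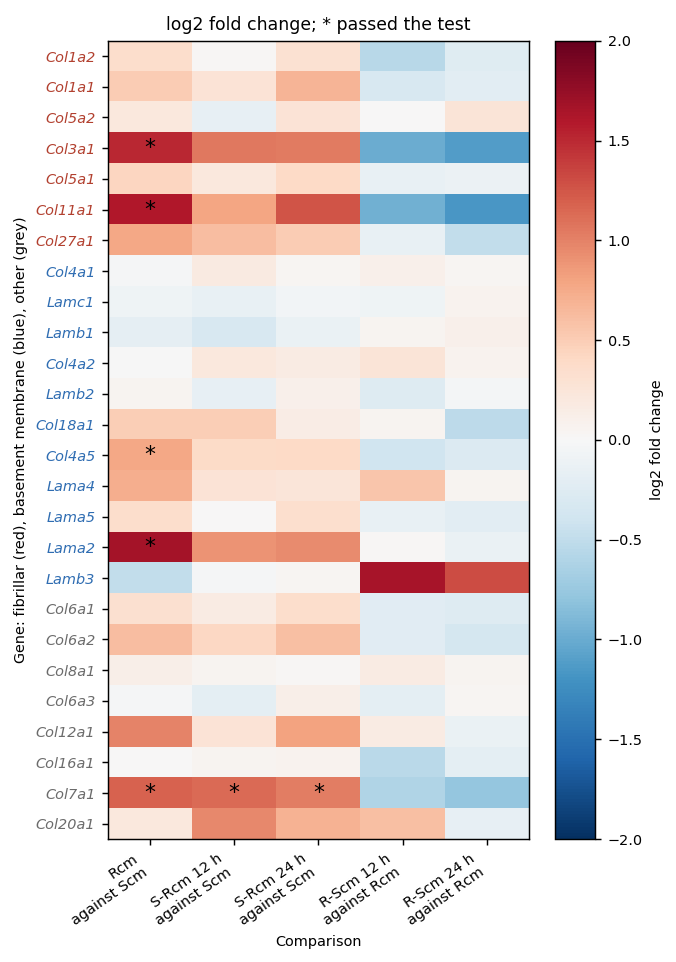
Fitted log2 fold change (colour) of 26 chain genes with a mean of at least 1 CPM in the 5 comparisons, with an asterisk where the test was passed. Asterisks stand at Col3a1, Col11a1, Col4a5, Lama2 and Col7a1 in Rcm against Scm and at Col7a1 in both S-Rcm comparisons.

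After the reverse exchange Lama2 remained near its Rcm level in the group means. Other chains did so too, such as Col12a1, at 1.12 and 0.912 times Rcm at 12 h and 24 h. The Col12a1 libraries lay far apart, at 284, 347 and 614 CPM at 12 h and at 590, 211 and 212 at 24 h. Its Rcm libraries held 325 to 393 CPM and its Scm libraries 165 to 200. Lama2 was at 3.88, 4.68 and 7.48 CPM in the R-Scm libraries at 12 h. At 24 h Lama2 was at 7.19, 4.42 and 2.85 CPM, beside 4.79 to 6.05 in Rcm. Against Rcm its log2 fold change was 0.02 (SE 0.31) at 12 h and -0.13 (SE 0.31) at 24 h. Against Scm it was still higher, by 1.69 at 12 h (SE 0.33, edgeR adjusted p = 0.0058), the only chain gene that passed where 4.4% of all genes did. At 24 h it was 1.54 (SE 0.34, edgeR adjusted p = 0.0498), again the only one, where 0.592% of all genes passed; the call held in 4 of 12 alternatives, and was lost with the replicate block, upper-quartile scaling or at least 10 counts in every library, and without any 1 Scm library or R-Scm 24 h replicate 1 or 2. Between 12 h and 24 h no chain gene passed edgeR (0.774% of all genes did), 3 had an unadjusted p under 0.05 and DESeq2 called 0; without the same library Col3a1 and Col11a1 passed.

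Lamb3, a β chain of epithelial laminin, was low but had the largest fitted value of the reverse exchange among genes with a mean of at least 1 CPM. It was at 1.81, 1.75 and 3.50 CPM at 12 h beside 0.437, 0.865 and 0.914 in Rcm. The log2 fold change was 1.64 (SE 0.46, edgeR adjusted p = 0.0569), which did not pass; DESeq2 called it.

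The 2 exchanges were set against each other as the change in R-Scm minus the change in S-Rcm, each from its own starting serum. This contrast reuses the Rcm and Scm libraries and is not separate from the comparison of Rcm with Scm. At 12 h 3 chain genes passed (2.03% of all genes did): Col3a1 at -2.05 (SE 0.47), Col7a1 at -1.73 (SE 0.25) and Col4a5 at -0.79 (SE 0.19). At 24 h 3 passed (1.37%): Col11a1 at -2.43 (SE 0.54), Col3a1 at -2.15 (SE 0.47) and Col7a1 at -1.80 (SE 0.25). Without R-Scm 24 h replicate 1 the count at 24 h was 11. The mean change of both exchanges, which a change of medium of either kind would share, gave no call at 12 h (1.51% of all genes; 9 chain genes at an unadjusted p under 0.05; DESeq2 called 1) or at 24 h (0.026%; 2 chain genes; DESeq2 called 0).

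Across all 6 groups in 1 test, 4 chain genes differed (7.09% of all genes did): Col7a1 (edgeR adjusted p = 0.00205), Col4a5 (0.0218), Lama2 (0.022) and Col5a2 (0.0453). Col5a2, which pairs with Col5a1 in type V collagen, was at 964, 956 and 967 CPM in Scm and 1120, 1118 and 1106 in Rcm. Its R-Scm 24 h libraries held 1630, 1130 and 1255 CPM, the first of them the highest of all 18. Without that library 11 chain genes differed, and with any other 1 left out 1 to 6 did. Col5a2 passed in 10 of 24 alternatives.

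Chains that assemble together were compared as ratios of counts per kb, each library on its own. Exact two-sided permutation tests of 3 against 3 libraries cannot go below 0.1, and over the 45 comparisons the smallest adjusted p was 0.237, so none could pass. Col6a1 to Col6a2, 2 chains of type VI collagen, was 2.92, 2.90 and 2.90 in Scm and 2.37, 2.34 and 2.37 in Rcm. The groups lie apart, with an SD of at most 0.016 in either. Over the 18 libraries this ratio averaged 2.53, and 4.99 with the union of annotated exons as length. In all, 19 of the 45 comparisons were without overlap. Those of Rcm with Scm included Lama4, Lama5 and Lamb1 to Lamc1 and Lamb2 to Lamb1, but not Col4a1 to Col4a2. Col5a1 to Col5a2 was 0.267 ± 0.0061 in Scm, 0.309 ± 0.024 in Rcm and 0.236 ± 0.025 in R-Scm 24 h (SD, n = 3). Col6a3 to Col6a1 averaged 0.181 over the 18 libraries, at 0.21 ± 0.019 in Scm and 0.166 ± 0.016 in Rcm.

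Col1a1 to Col1a2 was 0.623 ± 0.023 in Scm, 0.693 ± 0.059 in Rcm and 0.803 ± 0.088 in S-Rcm 24 h (SD, n = 3). Type I collagen is mostly made of 2 Col1a1 chains to 1 Col1a2 chain. The level of this ratio too rests on the length used, at 0.732 over the 18 libraries with principal transcripts and 1.54 with the union of annotated exons. Col4a1 to Col4a2 was 1.63 ± 0.061 in Scm and 1.63 ± 0.071 in Rcm.

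**Figure D5:**
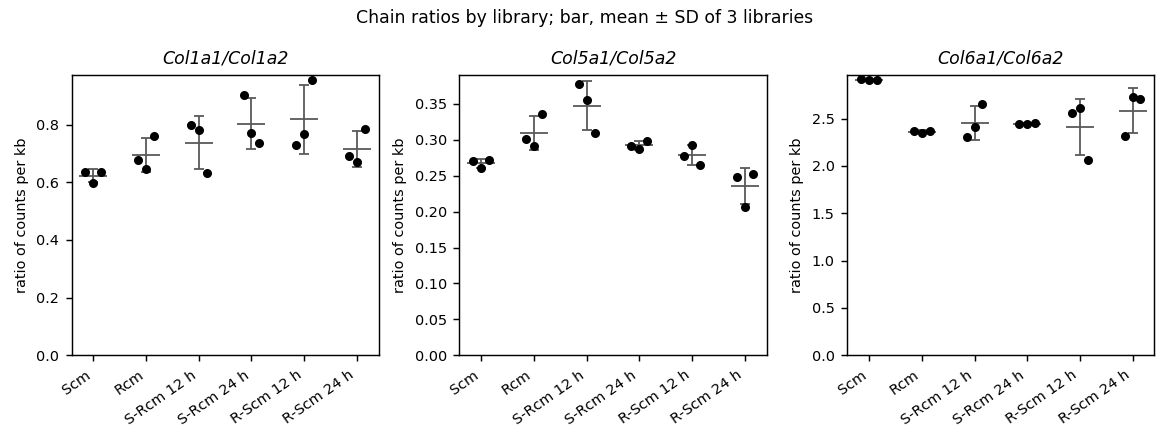
Ratio of counts per kb for 3 chain pairs in each library (points) with the mean ± SD of 3 libraries (bars), by group. Col6a1 to Col6a2 is near 2.91 in the Scm libraries and 2.36 in the Rcm libraries.

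Genes that modify or bind these chains were taken as lists. Of 19 tested enzymes and chaperones of collagen folding, none passed in Rcm against Scm and 5 had an unadjusted p under 0.05. Of 8 tested fibril-associated proteins, none passed in any of the 5 comparisons, and 1 had an unadjusted p under 0.05 in Rcm against Scm. Of 11 genes of procollagen processing and cross-linking, 1 rose and 1 fell, beside 2.3% of all genes that passed. Loxl2, an oxidase that cross-links collagen, rose by 1.29 (SE 0.17, edgeR adjusted p = 0.000462), and Pcolce2, an enhancer of procollagen cleavage, fell by 1.21 (SE 0.22, edgeR adjusted p = 0.00562). In R-Scm 12 h against Rcm, where 2.74% of all genes passed, 2 rose and 1 fell: Pcolce2 at 1.65, Tll1, a protease of the procollagen C-proteinase family, at 1.45 (SE 0.35, edgeR adjusted p = 0.0274) and Loxl2 at -0.82. Loxl2 also passed in S-Rcm against Scm, at 0.86 after 12 h and 1.03 after 24 h.

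Of 8 tested partners of the basement membrane, 2 rose and 1 fell in Rcm against Scm, again beside 2.3% of all genes. Ntn4, a netrin that binds laminin γ chains, rose by 1.12 (SE 0.19), and Agrn, the proteoglycan agrin, by 0.65 (SE 0.16). Ntn4 also passed in S-Rcm against Scm, at 1.23 after 12 h and 0.98 after 24 h. Smoc2, a matrix glycoprotein, fell, but its Rcm libraries held only 2, 2 and 0 counts, under the floor of 3, beside 13, 9 and 8 in Scm. It passed again in R-Scm 12 h, with 23, 28 and 38 counts. No fold change is given for it. None of the 6 collagen receptors or the 6 laminin receptors tested passed in Rcm against Scm, and 1 of each had an unadjusted p under 0.05. At 12 h of R-Scm the collagen-binding integrin chain Itga2 rose by 2.65 (SE 0.50, edgeR adjusted p = 0.00486). Its level was low, at 0.266 to 0.499 CPM in Rcm and 1.23 to 3.74 in R-Scm 12 h, so this value rests on few counts. The laminin-binding Itga3 fell by 0.66 (SE 0.13, edgeR adjusted p = 0.00778). Of the 6 laminin receptors, 4 had a positive fitted value there and 2 a negative one, with a median of 0.12.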

How the data were processed

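RNA was extracted by the authors with the RNeasy mini kit and libraries were prepared with an ABclonal mRNA kit, sequenced as paired ends and mapped to GRCm38 with HISAT2. The deposited table holds raw counts per gene and library; the counting tool, its use of strand and its treatment of multi-mapping reads are not given in the sources used here. The members and the gene lists were chosen with earlier results of these data known.

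The 15381 genes tested were those kept by filterByExpr of edgeR with default settings on the 6 groups, which cuts on CPM. Their counts were scaled by TMM in edgeR 4.0.16 (R 4.3.3) and fitted over all 18 libraries in 6 groups, without covariates. Testing used the quasi-likelihood test with Benjamini-Hochberg adjustment over all genes. DESeq2 1.42.0 and the other alternatives are given in the closing section. The fit was tested on simulated data. CPM use TMM-scaled totals, and CPM per kb the APPRIS principal transcript of GENCODE M21, which held 55141 of the 55487 identifiers. Replicate libraries were not duplicates of each other (chi-square of their counts divided by its degrees of freedom, 9.61 to 42.7). Ratios used exact permutation tests in scipy 1.17.1. The text names every chain gene that passed a test, the 10 with the highest level per kb, the 3 with the largest change in each of the 5 comparisons at a mean of 1 CPM or more, the chain pairs, and list genes that passed. Promoter sequences are from RefSeq (GRCm38.p6), with a window for 26 of the 34 genes. The values of 1 chain gene are not reported here on their own.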

Additional observations from a re-analysis of the deposited data

Results flagged for a closer look

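The change after the move from Rcm into Scm differed from the change after the move from Scm into Rcm for 4 chain genes, by a test of the difference itself in edgeR. It uses the same Rcm and Scm libraries as the comparison of Rcm with Scm, so it is not separate evidence. At 12 h the difference was -2.05 on the log2 scale for Col3a1 (edgeR adjusted p = 0.0345), -0.79 for Col4a5 (0.0331) and -1.73 for Col7a1 (0.00119). For Col4a5 the R-Scm 12 h and S-Rcm 12 h means were alike, at 52.7 and 53.0 CPM, beside 69.6 in Rcm and 40.5 in Scm. Its value thus mostly restates Rcm against Scm. At 24 h it was -2.43 for Col11a1 (edgeR adjusted p = 0.0414), -2.15 for Col3a1 (0.038) and -1.80 for Col7a1 (0.0014). Both Col7a1 values passed in all 18 alternatives run for each, with an edgeR or DESeq2 adjusted p of at most 0.00704. Col3a1 at 12 h passed in 5 of 18, Col4a5 in 8 of 18, Col11a1 at 24 h in 6 of 18 and Col3a1 at 24 h in 7 of 18.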

How the results depend on the processing

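Counts of chain genes that passed moved as follows. The share of all genes that passed under each alternative is not given here, so these counts are not set against it. In Rcm against Scm the count of 5 became 3 with no filter on low counts, 2 at an adjusted p under 0.01, 6 in DESeq2 (adding Col27a1) and 7 in edgeR on the compared groups alone (adding Col12a1 and Col6a2), and ran from 2 to 5 with 1 library left out. In R-Scm 12 h against Rcm the count of 0 became 3 in DESeq2, 2 in edgeR on the compared groups alone and 1 by adjusted p alone. In R-Scm 24 h against Rcm it was 2 in DESeq2, and 0 to 5 with 1 library left out, 5 being without R-Scm 24 h replicate 1. In S-Rcm 12 h against Scm the count of 1 became 2 in DESeq2 and 3 in edgeR on the compared groups alone. In S-Rcm 24 h against Scm it became 2, 4 and, at an adjusted p under 0.01, 0, and was 0 with any 1 library left out. With 1 library left out the count ran from 0 to 2 between R-Scm 24 h and 12 h, from 1 to 2 in R-Scm 12 h against Scm, from 0 to 1 in R-Scm 24 h against Scm and from 0 to 1 for the mean change at 24 h. That for the mean change at 12 h was 1 in DESeq2. The difference between the exchanges gave 1 to 2 at 12 h and 1 to 11 at 24 h with 1 library left out, and at 24 h 5 in DESeq2 and 1 with no filter on low counts. Across the 6 groups the count of 4 became 8 in DESeq2 and 1 at an adjusted p under 0.01, and ran from 1 to 11 with 1 library left out. The cause of these moves was not tested. Fewer samples enter the fit when a library is left out.

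With the replicate number as a replicate block the count in Rcm against Scm was 5, across the 6 groups 5, and in R-Scm 24 h against Scm 0, as with upper-quartile scaling and with at least 10 counts in every library. Whether the numbers pair the samples was not settled. Over 45 pairs of same-numbered libraries the correlation of deviations from the group means ran from -0.196 to 0.346, with 11 over 0.1. Between libraries with different numbers it ran from -0.269 to 0.212. The numbers used are those of the sample titles. In S-Rcm 24 h, R-Scm 12 h and R-Scm 24 h the count columns are numbered differently, and that numbering was not tested. Of the fold changes printed, 4 near 0 changed sign with 1 library left out: in Rcm against Scm Col4a1 ran from -0.13 to 0.029 and Col4a2 from -0.13 to 0.051, and Lama2 against Rcm ran from -0.29 to 0.21 at 12 h and from -0.54 to 0.17 at 24 h. Summed class levels moved by less than the spread between libraries in every alternative run. The length alternative for chain ratios, and the added scaling and filter settings for the contrasts outside the 5 comparisons, were chosen after seeing the data. Genes with a mean under 1 CPM, 7 of the 34, rest on few counts.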
